A study of Homo sapiens with 58 samples.

Results

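The genes of cholesterol synthesis and uptake were followed in HepG2 cells, a human hepatocellular carcinoma line, after 24 h with herbal extracts. The set holds 32 genes taken by name: 20 enzymes from acetoacetyl-CoA to cholesterol, 4 genes of the sterol sensor system and 8 genes of sterol uptake, transport and esterification. Of the 60675 gene identifiers in the count table, 13945 had enough reads to be tested, and 31 of the 32 members were among them. INSIG1, which encodes a sterol-dependent anchor of the SREBP escort protein SCAP, had 0 to 12 reads per library and 299 over all 58 libraries, so it was not tested.

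The 58 libraries fell into 24 groups, and 3 of them were vehicle controls given DMSO, at 0.1% per the sample labels and 2% per the series text. The treatments were water extracts of 2 multi-herb formulas, Sayeok-tang and Bojungikgi-tang, and 70% ethanol extracts of single herbs. The herbs were ginger, fresh (Zingiberis Rhizoma Recens) and dried (Zingiberis Rhizoma), and also Scutellariae Radix, Pinelliae Tuber, Zizyphi Fructus and Coptidis Rhizoma. Doses were 500 µg/mL (high), 100 µg/mL (medium) and 20 µg/mL (low), but for Coptidis Rhizoma only 56 µg/mL (medium) and 11.2 µg/mL (low). Groups held 3 libraries, except Bojungikgi-tang at each dose and high-dose dried ginger with 2, and Coptidis Rhizoma and Zizyphi Fructus with 1 at each dose. No label says that replicates came from separate cultures, so p-values measure the spread between these libraries, which may be technical.

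Cholesterol is made from acetyl-CoA through HMG-CoA, mevalonate, the isoprenoid diphosphates, squalene and lanosterol, and the liver is a main site of this synthesis. When sterols in the endoplasmic reticulum run low, SCAP carries the precursor of the transcription factor SREBP2 (gene SREBF2) to the Golgi, where it is cut, and the released part enters the nucleus and turns on genes of synthesis and uptake. When sterols are plentiful, INSIG proteins hold SCAP back and these genes are less active.

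Libraries held 22143845 to 31859981 expected counts. Replicate 3 of low-dose Scutellariae Radix and replicate 3 of low-dose dried ginger stood apart from their own replicates, with a chi-square per gene of 13.7 to 17.2 and of 14.2 to 15.2, where the remaining pairs of these groups had 3.39 and 2.34. To a lesser degree so did replicate 1 of high-dose fresh ginger, at 8.47 and 9.44 against replicates 2 and 3, where that pair had 3.74. The 7 hepatocyte markers summed to 15800 to 21200 CPM (counts relative to library size, scaled by TMM) in every library. Of the fibroblast markers DCN was at 0 in all libraries, and the sum of the 5 was 3.86 to 24.2 CPM. Of the leukocyte markers PTPRC was at 0 in all libraries, while LYZ alone was at 1150 to 2320 CPM; the 5 endothelial markers summed to 2.67 to 5.08 CPM. Library codes carry a number before the replicate that is shared by Sayeok-tang and Bojungikgi-tang, by the gingers, by Pinelliae Tuber and Scutellariae Radix, and by Coptidis Rhizoma and Zizyphi Fructus, and that differs from the vehicle's. The labels do not say what it marks, and every title, the vehicle's included, carries the same batch letter, C. If it marks handling, handling and extract cannot be told apart against the vehicle, whereas comparisons between doses, and between extracts of one number, stay within it.

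Promoters were read to show what sequence the members have in common. SREBP binds sterol regulatory elements, and the trimeric factor NF-Y, which binds CCAAT boxes, acts beside it at many of these genes. RefSeq promoters (GRCh38.p14) matched 27 of the 32 members; ACAT2, FDFT1, SQLE, SCARB1 and SOAT2 had no entry. In the 250 bases before the start, on both strands, CCAAT was found in 19 of the 27 (70.4%), against 34.1% of 18900 promoters of genes in the table. The GC box GGGCGG was found in 23 of 27 (85.2%, against 51.9%). The sterol element TCACNCCAC was found in 1 of 27 (3.7%, against 0.894%), which was SREBF2, at -133 to -125 from the start, with a CCAAT box at -106 to -102. Among the 13 members that fell with all 6 replicated high-dose extracts, 9 of the 11 with a promoter had a CCAAT box, and among the other members 10 of 16 had one. A match describes these letters only and is not a measured binding site. Bases after the start were found in a transcript of the gene for 23 of the 27, and not for IDI1, GGPS1, SC5D and MYLIP. The 150 bases before the start are shown for 4 members that fell and for the 2 that rose most often, with CCAAT boxes (ATTGG on the other strand) and the sterol element in capitals. They lie at chr5:43313413-43313562 (minus strand) for HMGCS1, chr12:109573644-109573793 (plus) for MVK, chr16:88663092-88663241 (minus) for MVD, chr22:41832955-41833104 (plus) for SREBF2, chr2:118088321-118088470 (plus) for INSIG2 and chr18:23586507-23586656 (minus) for NPC1.
HMGCS1: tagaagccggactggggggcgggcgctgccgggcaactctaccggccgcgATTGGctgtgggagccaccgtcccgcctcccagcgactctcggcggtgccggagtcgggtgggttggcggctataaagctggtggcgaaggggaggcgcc
MVK: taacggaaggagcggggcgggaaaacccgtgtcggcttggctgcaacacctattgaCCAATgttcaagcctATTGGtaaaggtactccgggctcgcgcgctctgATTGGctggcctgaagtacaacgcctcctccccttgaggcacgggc
MVD: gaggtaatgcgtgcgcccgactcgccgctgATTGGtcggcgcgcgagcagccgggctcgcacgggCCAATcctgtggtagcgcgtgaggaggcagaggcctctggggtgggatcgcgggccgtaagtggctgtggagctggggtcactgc
SREBF2: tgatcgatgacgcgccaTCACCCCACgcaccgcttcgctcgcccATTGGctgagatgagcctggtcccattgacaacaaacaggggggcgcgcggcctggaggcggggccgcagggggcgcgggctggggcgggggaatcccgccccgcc
INSIG2: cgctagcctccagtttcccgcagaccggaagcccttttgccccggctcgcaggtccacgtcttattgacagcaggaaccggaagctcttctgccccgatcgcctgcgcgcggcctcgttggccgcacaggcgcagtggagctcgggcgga
NPC1: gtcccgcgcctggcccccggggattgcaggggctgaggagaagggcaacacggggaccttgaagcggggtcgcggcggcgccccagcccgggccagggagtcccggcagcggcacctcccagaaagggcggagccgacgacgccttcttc
In these stretches MVK had 3 CCAAT boxes, MVD 2, and HMGCS1 and SREBF2 1 each, and INSIG2 and NPC1 had none. The stretches were picked and do not stand for all members: IDI1 and CYP51A1, which fell with all 6 extracts, had no CCAAT box in the 250 bases.

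Per kilobase of merged exon, levels in the vehicle libraries differed widely between members. Merged exon is the union of all annotated exons of a gene, so the ranking also depends on the annotation, which the SD does not cover. HMGCS1, which joins acetoacetyl-CoA and acetyl-CoA to HMG-CoA, was the highest at 101 ± 2.31 CPM per kb (SD, n = 3), while mevalonate kinase (MVK), also early, was at 12.1 ± 0.161. The squalene enzymes SQLE and FDFT1 stood at 93.6 ± 1.28 and 91.5 ± 2.42, a pair that did not differ beyond its spread. MSMO1 and CYP51A1, which remove methyl groups from lanosterol, stood at 83.9 ± 2.80 and 83.1 ± 0.285, again not apart beyond their spread. The lowest tested members per kb were MYLIP at 1.36 ± 0.0911, GGPS1 at 7.84 ± 0.166 and HSD17B7 at 7.97 ± 0.0649. MYLIP encodes a ubiquitin ligase that removes lipoprotein receptors. INSIG1 was listed at 0.0756 ± 0.0241, which is low for a gene that hepatocytes usually express, so the value describes the deposited counts only.

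At the high dose, most of the synthesis genes were lower than in the vehicle with each of the 6 replicated extracts, and the members' share of lower calls was above that of all genes tested. With Sayeok-tang 21 of the 31 tested members fell and 2 rose, where 19.9% of all genes fell and 20.3% rose. Bojungikgi-tang lowered 14 and raised 1 (all genes 2.31% and 2.24%). Fresh ginger lowered 22 and raised 4 (23.6% and 24.3%), and dried ginger lowered 22 and raised 3 (22.8% and 23.3%). Pinelliae Tuber lowered 23 and raised 1, where only 6.57% of all genes fell and 9.14% rose. Scutellariae Radix lowered 22 and raised 3, against 28.1% and 28.7%. The median log2 fold change of the members was -0.33, -0.11, -0.33, -0.34, -0.46 and -0.27 in that order, while the median of all genes was between 0.000 and 0.009. These comparisons share the 3 vehicle libraries. Bojungikgi-tang had 2 libraries. Without replicate 2, with 1 library left, 5 members were called (HMGCS1, MVK, MVD, FDFT1 and SQLE, all lower), while the log2 fold changes of the 10 lost kept their direction. MVD was in turn lost without replicate 3 (adjusted p = 0.48) or without any 1 vehicle library (0.094 to 0.1). Calls are from edgeR's quasi-likelihood test with Benjamini-Hochberg adjustment over all 13945 genes, at 0.05.

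**Figure D1:**
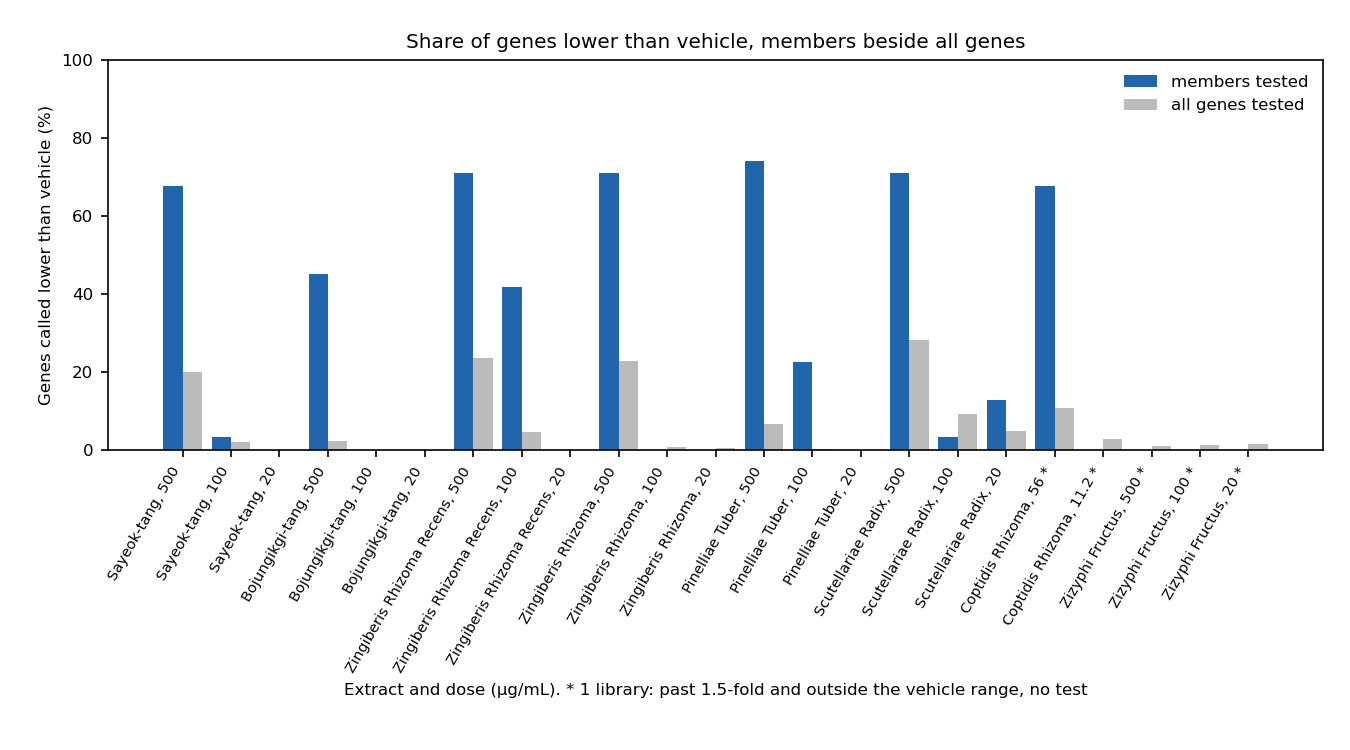
Share of genes lower than vehicle (y axis, %) for the 31 tested members (blue) and all 13945 tested genes (grey), by extract and dose (x axis). At the high dose of the replicated extracts the blue bars reach 45.2% to 74.2%, and the grey bars 2.31% to 28.1%. Starred groups have 1 library and no test, and their shares are by a 1.5-fold limit. Among them, high-dose Zizyphi Fructus has 0% of the members and 1.13% of all genes lower.

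All libraries came from 1 cell line, and bulk RNA cannot tell fewer cells in a state from less RNA per cell. Hepatocyte markers moved too at the high dose. Of 7, 5 were lower with Sayeok-tang (all genes 19.9%), 5 with fresh ginger (23.6%) and 5 with dried ginger (22.8%). With Scutellariae Radix 6 were lower (28.1%) and with Pinelliae Tuber 1 (6.57%). With Bojungikgi-tang edgeR called 0 lower (2.31%), 1 had an unadjusted p under 0.05 and DESeq2 called 0. With fresh ginger 2 were higher (all genes 24.3%), and with dried ginger (23.3%) and Scutellariae Radix (28.7%) 1 each. FGB, a fibrinogen chain, was among those that fell with the gingers, by 1.14 ± 0.055 and 1.36 ± 0.065 on the log2 scale. Here and below, ± on the log2 scale is the SE from the fit on all 58 libraries. The fibroblast sum was 10.2 to 11.8 CPM in the vehicle, 20.7 to 24.2 with fresh ginger and 3.86 to 4.90 with Scutellariae Radix, mostly from PDGFRB. The part of these shifts in the members' changes was not tested.

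By member, 13 fell with all 6 extracts at the high dose: HMGCS1, MVK, MVD, IDI1, FDFT1, SQLE, LSS, CYP51A1, TM7SF2, MSMO1, DHCR7, SREBF2 and STARD4. For 8 of these the Bojungikgi-tang adjusted p was 0.061 to 0.35 without replicate 2, at log2 fold changes of -0.26 to -0.13. Another 6 fell with 5 of the 6. SCAP and NPC2 were called with none, and NPC1L1, SCARB1 and SOAT2 were called in both directions. INSIG2 and NPC1 each rose with 5 of the 6.

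**Figure D2:**
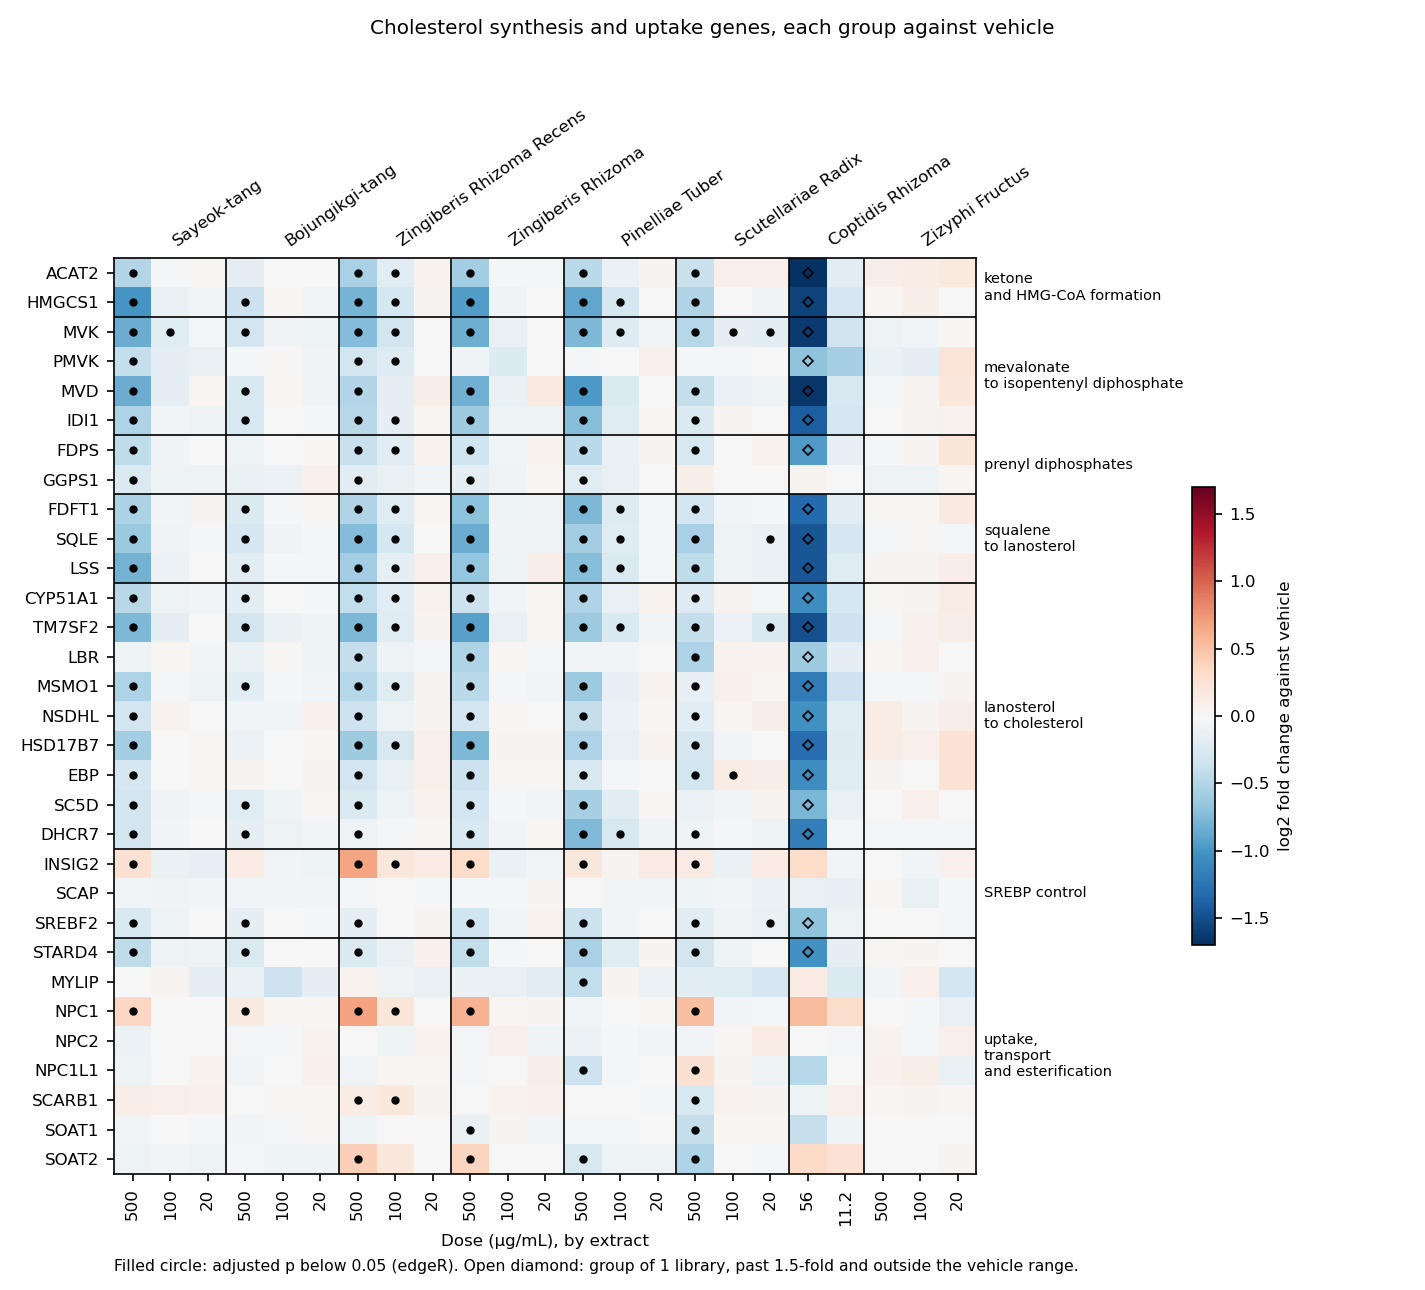
Heat map of the log2 fold change against vehicle (colour) for the 31 tested members (rows, by step of the pathway) in the 23 treated groups (columns, by extract and dose in µg/mL). Most synthesis rows are blue at the high dose of 6 extracts and at 56 µg/mL of Coptidis Rhizoma, with GGPS1 (0.10 with Scutellariae Radix and 0.04 with Coptidis Rhizoma) and EBP (0.05 with Bojungikgi-tang) as exceptions. INSIG2 and NPC1 are red there, but for NPC1 with Pinelliae Tuber (-0.04), and the Zizyphi Fructus columns stay within -0.32 to 0.25.

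The first steps gave the largest fall in several groups. HMGCS1 stood at 479, 484 and 463 CPM in the vehicle. With high-dose Sayeok-tang it stood at 234, 237 and 242, with dried ginger at 242 and 249, and with Pinelliae Tuber at 261, 256 and 257. Every library of these groups lay below every vehicle library, and the log2 fold changes were -1.0 ± 0.039, -0.95 ± 0.044 and -0.88 ± 0.039. Fresh ginger gave 259, 276 and 290 CPM (-0.79 ± 0.038), Scutellariae Radix 326, 342 and 334 (-0.51 ± 0.038) and Bojungikgi-tang 373 and 366 (-0.36 ± 0.043, adjusted p = 1e-07). None of them overlapped the vehicle either. ACAT2, the cytosolic thiolase that makes acetoacetyl-CoA, was at 275 to 277 CPM in the vehicle and fell with 5 extracts, by 0.38 to 0.59 on the log2 scale. With Bojungikgi-tang it was at 250 and 244 (-0.16 ± 0.051, adjusted p = 0.06). Exons of ACAT2 overlap TCP1 and SOD2 on the other strand, and whether the counting used strand is not given in the sources used here.

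From mevalonate to isopentenyl diphosphate, 3 of the 4 enzymes fell with every extract. Mevalonate kinase (MVK) stood at 77.5, 78.8 and 79.5 CPM in the vehicle and at 46.0, 40.9 and 44.1 with high-dose Sayeok-tang (-0.85 ± 0.045). Mevalonate diphosphate decarboxylase (MVD) stood at 191, 191 and 190 in the vehicle and at 94.8, 92.3 and 103 with Pinelliae Tuber, the largest fall of a member with that extract (-0.98 ± 0.072, adjusted p = 2.3e-14). The groups did not overlap in either case. The isomerase IDI1 was at 201, 196 and 194 CPM in the vehicle and at 122, 117 and 116 with Pinelliae Tuber (-0.73 ± 0.050), with Scutellariae Radix at 165, 167 and 164 (-0.25 ± 0.049). Its Bojungikgi-tang libraries, 158 and 168, were also lower (-0.27 ± 0.056, adjusted p = 0.0015, and 0.11 without replicate 2). PMVK, the kinase between MVK and MVD, stood at 12.9, 14.0 and 13.3 CPM in the vehicle and fell with Sayeok-tang (10.0, 10.2 and 10.1) and fresh ginger (11.1, 11.0 and 10.3), but its log2 fold changes with the other 4 extracts were -0.02 to -0.06. Exons of 13 members overlap a gene on the other strand, MVK and IDI1 with 1 such gene each. The others are ACAT2, HMGCS1, FDPS, GGPS1, FDFT1, LSS, CYP51A1, SREBF2, STARD4, NPC1 and NPC2.

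At the prenyl diphosphates, where the pathway branches to ubiquinone and protein prenylation, changes were smaller. FDPS, which makes farnesyl diphosphate, stood at 212, 203 and 212 CPM in the vehicle and fell with 5 extracts by 0.27 to 0.46 on the log2 scale. With Bojungikgi-tang it was at 206 and 190 (-0.08 ± 0.043, adjusted p = 0.36). FDPS has 8 pseudogenes by name, among which its reads could be shared. GGPS1, which makes geranylgeranyl diphosphate, fell with 4 extracts by 0.17 to 0.24 (with dried ginger an adjusted p of 0.0094, and 0.29 without its replicate 1). With Scutellariae Radix it stood at 31.1, 32.5 and 32.3 against 29.3, 29.7 and 30.6 in the vehicle (0.10 ± 0.048, adjusted p = 0.075).

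All 3 enzymes from farnesyl diphosphate to lanosterol fell with every one of the 6 extracts. Squalene epoxidase (SQLE), a rate-controlling step, stood at 398, 409 and 402 CPM in the vehicle. It stood at 222 and 224 with dried ginger (-0.85 ± 0.040), 237, 246 and 241 with fresh ginger (-0.74 ± 0.035) and 262, 258 and 263 with Sayeok-tang (-0.63 ± 0.035). With Pinelliae Tuber it was at 269, 271 and 262 (-0.59 ± 0.035), with Scutellariae Radix at 279, 280 and 269 (-0.55 ± 0.035) and with Bojungikgi-tang at 315 and 351 (-0.28 ± 0.039). No group overlapped the vehicle, and SQLE had the largest fall of a member with Scutellariae Radix. Squalene synthase (FDFT1) fell most with Pinelliae Tuber, from 487, 463 and 479 to 288, 274 and 279 (-0.76 ± 0.040). Lanosterol synthase (LSS) fell most with Sayeok-tang, from 281, 276 and 275 to 162, 162 and 155 (-0.80 ± 0.048). Its call with Bojungikgi-tang (-0.19 ± 0.053, adjusted p = 0.024) was lost without either of that formula's libraries or without vehicle replicate 1 or 3 (0.052 to 0.18).

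From lanosterol to cholesterol, 9 enzymes were tested: 8 fell with Sayeok-tang, Pinelliae Tuber and Scutellariae Radix, 9 with each ginger and 5 with Bojungikgi-tang. TM7SF2 and LBR both encode a sterol C14 reductase, LBR being also a protein of the inner nuclear membrane, and they were not called with the same extracts. TM7SF2 stood at 79.5, 80.5 and 80.3 CPM in the vehicle and at 45.0 and 39.6 with dried ginger (-0.92 ± 0.060), and it fell with all 6 extracts. With Bojungikgi-tang (62.1 and 67, -0.31 ± 0.057) its adjusted p was 0.061 without replicate 2. LBR stood at 181, 183 and 175 in the vehicle. It fell with fresh ginger (123, 139 and 145, -0.41 ± 0.043), dried ginger (124 and 126, -0.53 ± 0.049) and Scutellariae Radix (126, 131 and 119, -0.52 ± 0.043). With Sayeok-tang LBR was at 169, 174 and 169 (-0.08 ± 0.042, adjusted p = 0.16), with Bojungikgi-tang at 169 and 164 (-0.11 ± 0.048, adjusted p = 0.2) and with Pinelliae Tuber at 167, 181 and 174, overlapping the vehicle (-0.05 ± 0.042, adjusted p = 0.49).

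DHCR7, the reductase that turns 7-dehydrocholesterol into cholesterol, was lowest with Pinelliae Tuber among the replicated groups. It stood at 239, 229 and 242 CPM in the vehicle and at 145, 141 and 137 with Pinelliae Tuber (-0.75 ± 0.035, adjusted p = 5.8e-21). With Sayeok-tang it was at 192, 189 and 192 (-0.31 ± 0.035), with dried ginger at 200 and 195 (-0.26 ± 0.039) and with Bojungikgi-tang at 209 and 214 (-0.16 ± 0.039). With fresh ginger (235, 216 and 215) it overlapped the vehicle and with Scutellariae Radix (228, 217 and 227) it lay just below (-0.09 ± 0.035 and -0.08 ± 0.035, adjusted p = 0.023 and 0.044). Both calls were lost without vehicle replicate 1 or 3 or replicate 2 of the extract (0.065 to 0.11 and 0.1 to 0.2), the first also without replicate 3 of fresh ginger (0.13), and both without a filter on low counts (0.16 and 0.21). Among the replicated groups the desaturase SC5D, which acts just before DHCR7, was also lowest with Pinelliae Tuber. It stood there at 91.6, 94.4 and 90.4 against 138, 137 and 134 CPM in the vehicle (-0.56 ± 0.057). With Scutellariae Radix SC5D stood at 132, 129 and 119 (-0.10 ± 0.056, adjusted p = 0.12). With Bojungikgi-tang SC5D was called lower, at 111 and 124. By edgeR that call was lost with RLE scaling (adjusted p = 0.051), a replicate block (0.055) or any 1 vehicle library left out (0.083 to 0.11). Without Bojungikgi-tang replicate 2 the log2 fold change was -0.13. Of the other enzymes of this stage, CYP51A1 and MSMO1 fell with all 6 extracts, by 0.19 to 0.53 and by 0.14 to 0.62 on the log2 scale. The MSMO1 call with Scutellariae Radix had an adjusted p of 0.068 without replicate 3, and that with Bojungikgi-tang 0.081 to 0.2 without either of its libraries or without vehicle replicate 1 or 3. HSD17B7, NSDHL and EBP fell with all of these 6 extracts but Bojungikgi-tang. CYP51A1 has 3 and HSD17B7 has 2 pseudogenes by name.

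**Figure D3:**
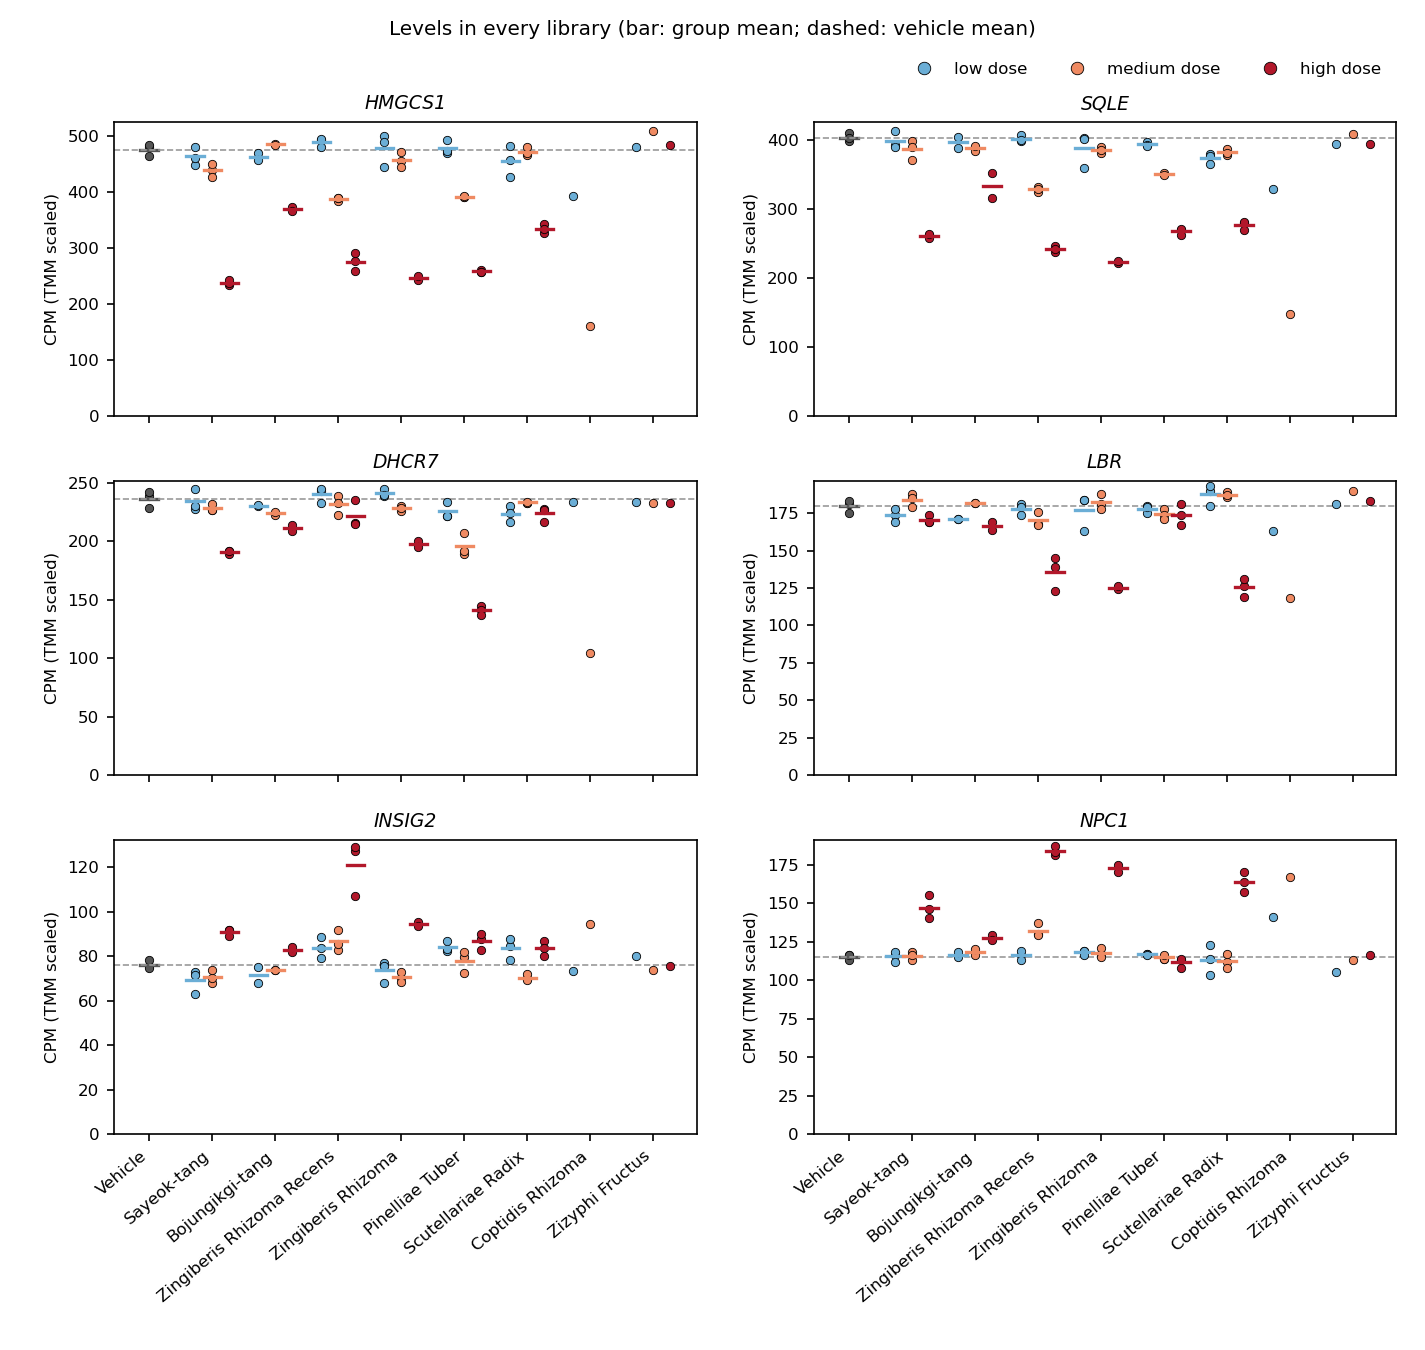
TMM-scaled CPM (y axis, from 0) of 6 members in every library, by extract (x axis) and dose (colour), with group means as bars and the vehicle mean dashed. HMGCS1 and SQLE are low at the high dose of 6 extracts, DHCR7 is lowest among replicated groups with Pinelliae Tuber, and NPC1 with high-dose Pinelliae Tuber lies at 108 to 114, beside the vehicle's 113 to 116.

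In the sensor system, the members did not move as a block. SREBF2 stood at 204, 204 and 200 CPM in the vehicle and fell with all 6 extracts, most with Pinelliae Tuber (154, 154 and 164, -0.37 ± 0.038) and dried ginger (164 and 157, -0.34 ± 0.043). Its fall with Bojungikgi-tang (176 and 186, -0.16 ± 0.042, adjusted p = 0.016) had an adjusted p of 0.35 without replicate 2. SCAP stood at 111, 114 and 109 in the vehicle and within -0.07 and 0.00 of it on the log2 scale in the 6 replicated high-dose groups, with no call. INSIG2, the second INSIG gene, was higher instead: 107, 127 and 129 with fresh ginger against 75.3, 74.7 and 78.1 in the vehicle (0.67 ± 0.057, adjusted p = 1.1e-13). It was also higher with dried ginger (95.2 and 93.5, 0.31 ± 0.065) and Sayeok-tang (91.9, 91.5 and 89.0, 0.26 ± 0.058), with no overlap. Smaller rises with Pinelliae Tuber (87.6, 89.8 and 82.9, 0.19 ± 0.058, adjusted p = 0.019) and Scutellariae Radix (86.8, 83.7 and 80.1, 0.14 ± 0.058, adjusted p = 0.043) did not overlap the vehicle either, but the calls were lost on leaving out some libraries. Without one of replicates 1 or 2 of the extract or of the vehicle, the adjusted p was 0.06 to 0.093 and 0.081 to 0.17 at log2 fold changes of 0.17 to 0.18 and 0.11 to 0.14, and the second was 0.055 with RLE scaling and 0.057 by DESeq2. With Bojungikgi-tang INSIG2 was at 81.7 and 84.1 (0.13 ± 0.065, adjusted p = 0.32).

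Among the transport and uptake genes the directions were mixed. STARD4, a carrier of sterol between membranes, fell with all 6 extracts, most with Pinelliae Tuber (67.1, 70.9 and 66.9 against 102, 102 and 95.9 CPM in the vehicle, -0.55 ± 0.049); its Bojungikgi-tang fall had an adjusted p of 0.16 without replicate 2. NPC1, which moves cholesterol out of lysosomes, rose. It stood at 116, 113 and 116 in the vehicle and at 181, 183 and 187 with fresh ginger (0.68 ± 0.040), 170 and 175 with dried ginger (0.59 ± 0.044) and 170, 164 and 157 with Scutellariae Radix (0.51 ± 0.040). Sayeok-tang gave 140, 146 and 155 (0.35 ± 0.040). With Pinelliae Tuber NPC1 was at 108, 113 and 114, overlapping the vehicle (-0.04 ± 0.040, adjusted p = 0.5). With Bojungikgi-tang it was at 129 and 126 (0.15 ± 0.045, adjusted p = 0.047), a call lost on leaving out replicate 2 or 3 of the extract or any 1 vehicle library (adjusted p = 0.083 to 0.36) and without a filter on low counts (0.14). NPC2, its partner inside the lysosome, was at 81.9, 74.5 and 83.6 in the vehicle. In the 6 replicated high-dose groups it lay between -0.10 and 0.01 of the vehicle on the log2 scale, with no call.

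Among the esterification enzymes and surface proteins, the direction depended on the extract for SOAT2, NPC1L1 and SCARB1. SOAT2, which esterifies cholesterol in liver and intestine, stood at 18.2, 18.9 and 21.0 CPM in the vehicle, 28.4, 24.3 and 24.2 with fresh ginger (0.40 ± 0.069) and 24.5 and 25.7 with dried ginger (0.37 ± 0.077). It fell to 14.4, 11.8 and 14.1 with Scutellariae Radix (-0.53 ± 0.074) and to 15.4, 15.7 and 17.2 with Pinelliae Tuber (-0.27 ± 0.072, adjusted p = 0.0066, and 0.086 without vehicle replicate 3). SOAT1, its more widely expressed relative, fell to 57.4, 61.1 and 57.0 with Scutellariae Radix from 76.5, 78.4 and 78.3 (-0.41 ± 0.041). With dried ginger SOAT1 was at 69.4 and 72.5 (-0.13 ± 0.045, adjusted p = 0.015, and 0.17 without replicate 1 and 0.069 without a filter). NPC1L1, the sterol uptake protein that ezetimibe blocks, was lower with Pinelliae Tuber (41.3, 38.3 and 39.7 against 52.1, 49.5 and 50.5, -0.35 ± 0.053) and higher with Scutellariae Radix (59.3, 61.8 and 61.1, 0.26 ± 0.051). SCARB1, the receptor for high-density lipoprotein, fell with Scutellariae Radix (210, 203 and 211 against 252, 245 and 256, -0.27 ± 0.049) and rose with fresh ginger (297, 269 and 256, 0.12 ± 0.048, adjusted p = 0.031). The rise was lost without fresh ginger replicate 1 (0.33) and without vehicle replicate 1 or 2 (0.057 and 0.11). MYLIP was at only 3.95, 3.98 and 4.44 CPM in the vehicle and fell with Pinelliae Tuber (2.99, 2.7 and 3.57, -0.42 ± 0.113, adjusted p = 0.0081). That call was lost without Pinelliae Tuber replicate 2 or vehicle replicate 3 (0.088 and 0.073).

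Dose was followed next. At 100 µg/mL fresh ginger still lowered 13 of 31 members and raised 3, where 4.66% of all genes fell and 6.63% rose. HMGCS1 stood at 383, 388 and 389 CPM (-0.30 ± 0.038), SQLE at 324, 332 and 328 (-0.30 ± 0.035) and MVK at 64.0, 61.4 and 64.2 (-0.31 ± 0.044), all below the vehicle range. NPC1 rose there to 130, 137 and 129 (0.20 ± 0.040), and INSIG2 to 82.7, 85.6 and 91.7 (0.19 ± 0.059, adjusted p = 0.027, and 0.054 to 0.17 without 1 of replicates 2 and 3 or of vehicle replicates 1 and 2). IDI1 (-0.15 ± 0.049, adjusted p = 0.034) was no longer called on leaving out replicate 1 or 2 of fresh ginger or any 1 vehicle library (0.059 to 0.14).

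Pinelliae Tuber at 100 µg/mL lowered 7 members and raised none, where 0.165% of all genes fell and 0.122% rose. HMGCS1 was at 390, 391 and 392 (-0.28 ± 0.038, adjusted p = 9.8e-06), DHCR7 at 189, 192 and 207 (-0.27 ± 0.035, adjusted p = 2.8e-06) and TM7SF2 at 64.3, 65.6 and 70.3 (-0.26 ± 0.050, adjusted p = 0.0047), none overlapping the vehicle. LSS, FDFT1, MVK and SQLE were the other 4, at -0.25 to -0.20. The count was 4 without replicate 1 or without replicate 2, with TM7SF2, LSS and MVK lost (adjusted p of 0.053 to 0.11). It was 11 by DESeq2, 11 without a filter on low counts and 14 without the 3 libraries left out together.

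The other extracts gave few calls at 100 µg/mL. Sayeok-tang lowered MVK only (71.0, 67.1 and 65.4, -0.21 ± 0.043, adjusted p = 0.0016), where 2.04% of all genes fell and 2.17% rose, and other settings called 2 or 3 members. Scutellariae Radix lowered MVK (70.0, 70.4 and 71.2, -0.16 ± 0.043) and raised EBP, a sterol isomerase (0.13 ± 0.042, adjusted p = 0.024), where 9.33% fell and 8.99% rose. The EBP call was lost without vehicle replicate 2 (0.16), without Scutellariae Radix replicate 3 (0.13) and without a filter (0.058). By edgeR no member was called with Bojungikgi-tang (all genes 0.043% lower and 0.0215% higher) or dried ginger (0.746% and 0.703%). At an unadjusted p under 0.05 there were 2 and 3 members, all lower (all genes 8.73% and 13.5%), and by DESeq2 0.

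At 20 µg/mL, 4 members were called with Scutellariae Radix, all lower, where 4.87% of all genes fell and 5.44% rose. TM7SF2 was at 66.1, 70.8 and 63.5 (-0.26 ± 0.050) and MVK at 70.4, 69.3 and 67.8 (-0.18 ± 0.043). SREBF2 (190, 191 and 173, -0.13 ± 0.038, adjusted p = 0.018) and SQLE (379, 377 and 364, -0.11 ± 0.034, adjusted p = 0.031) were lost without replicate 3, which stood apart (0.22 and 0.17), and without vehicle replicate 2 (0.058 and 0.11). SREBF2 was also lost without vehicle replicate 1 (0.054), SQLE without vehicle replicate 3 (0.08). The count was 2 without replicate 3 or vehicle replicate 2, and 7 without replicate 2. With the other 5 extracts edgeR and DESeq2 called 0 members at 20 µg/mL. Of all genes, 0.043% were lower and 0.0143% higher with Sayeok-tang, 0% and 0% with Bojungikgi-tang, 0.0932% and 0.509% with fresh ginger, 0.43% and 1.69% with dried ginger and 0.0359% and 0.237% with Pinelliae Tuber. At an unadjusted p under 0.05 there were 2, 0, 1, 2 and 1 members in that order (all genes 7.54%, 6.05%, 10.4%, 17% and 11.6%).

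Within an extract, high against low dose left the vehicle out, and the lower calls again outnumbered the higher ones. Sayeok-tang lowered 22 and raised 2 (all genes 19.3% and 18.4%), fresh ginger 22 and 3 (24.3% and 23.3%) and dried ginger 21 and 3 (24.3% and 23.2%). Pinelliae Tuber lowered 21 and raised none (4.98% and 5.09%), and Scutellariae Radix lowered 22 and raised 2 (28.5% and 27.2%). HMGCS1 was at 480, 448 and 461 CPM with low-dose Sayeok-tang, and its difference from the high dose was -0.96 ± 0.039. MVD differed by -0.98 ± 0.073 with Pinelliae Tuber and by -0.97 ± 0.082 with dried ginger. Its low-dose dried ginger libraries were at 200, 201 and 235 CPM, the last being replicate 3, which stood apart. With Scutellariae Radix the largest difference of a member was that of LBR (190, 180 and 193 at the low dose, -0.59 ± 0.043), followed by the rise of NPC1 (123, 114 and 103, 0.53 ± 0.040). INSIG2 was higher at the high than at the low dose with Sayeok-tang (0.40 ± 0.059), fresh ginger (0.53 ± 0.057) and dried ginger (0.36 ± 0.065). With Pinelliae Tuber and Scutellariae Radix INSIG2 at the low dose was already at 82.4, 86.6 and 83.1 and at 84.6, 78.0 and 87.6. INSIG2 was not called between the high and low dose of either extract, nor at their low dose against the vehicle. Bojungikgi-tang lowered 7 members and raised none (0.875% and 0.81%), HMGCS1 by 0.32 ± 0.047 and FDFT1 by 0.27 ± 0.049, but 2 were called without high-dose replicate 2 and 3 without low-dose replicate 3.

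Extracts that share a library code number were compared directly at equal doses. Against high-dose Bojungikgi-tang, high-dose Sayeok-tang had 18 members lower and 1 higher, where 13% of all genes were lower and 13.2% higher. The largest differences were those of HMGCS1 (-0.64 ± 0.043), LSS (-0.61 ± 0.053) and MVD (-0.58 ± 0.080), and NPC1 was the 1 higher (0.21 ± 0.044). LBR, at 169 to 174 against 164 to 169 CPM, differed by 0.04 ± 0.048 (adjusted p = 0.63). At 100 µg/mL edgeR and DESeq2 called 0 members between the formulas, where 0.201% of all genes were lower and 0.115% higher, and 7 members had an unadjusted p under 0.05 (all genes 7.17%).

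Between fresh and dried ginger at the high dose, 8 members were higher with fresh ginger and 1 lower, where 13.2% and 10.2% of all genes were. INSIG2 differed most (107, 127 and 129 against 95.2 and 93.5, 0.36 ± 0.064, adjusted p = 2.3e-05), and MVD next (156, 119 and 130 against 109 and 107, 0.32 ± 0.082, adjusted p = 0.0033), which had an adjusted p of 0.067 without fresh ginger replicate 1. DHCR7 and SREBF2 were higher with fresh ginger by 0.17 ± 0.039 and 0.19 ± 0.043. The differences of PMVK (-0.24 ± 0.083), STARD4 (0.18 ± 0.056), HMGCS1 (0.16 ± 0.044) and SQLE (0.11 ± 0.040) were each lost on leaving out dried ginger replicate 1, with adjusted p of 0.05 to 0.18, and 3 members were called when only these libraries were fitted. PMVK, STARD4 and SQLE were also lost without dried ginger replicate 2 or fresh ginger replicate 3 (0.06 to 0.26), and STARD4 and SQLE without fresh ginger replicate 2 (0.094 and 0.12). NPC1, LBR and SOAT2 did not pass the test between the gingers (0.09 ± 0.044, 0.11 ± 0.049 and 0.03 ± 0.076). At 100 µg/mL 10 members were lower with fresh than with dried ginger and 2 higher (all genes 2.85% and 4.31%). INSIG2 was higher with fresh ginger at both doses, and HMGCS1, FDFT1 and SQLE were called higher at the high dose and lower at this one, FDFT1 at 0.19 and -0.14. The FDFT1 call at 100 µg/mL was lost without replicate 1 or 2 of either ginger (adjusted p = 0.053 to 0.068). HSD17B7 was at 31.1, 32 and 31.7 against 39.2, 38.1 and 40.8 (-0.32 ± 0.047), INSIG2 at 82.7 to 91.7 against 68.3 to 72.6 (0.30 ± 0.059), and HMGCS1 at 383 to 389 against 444 to 471 (-0.24 ± 0.038), all without overlap.

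Pinelliae Tuber and Scutellariae Radix had the most members apart, 23, against 19 for the formulas and 9 for the gingers. They also had the most of all genes apart, 27.2% lower and 28.7% higher. For the formulas the shares of all genes were 13% and 13.2%, and for the gingers 10.2% and 13.2%. At the high dose 19 members were lower and 4 higher with Pinelliae Tuber, where 27.2% and 28.7% of all genes were. DHCR7 led, at 145, 141 and 137 against 228, 217 and 227 CPM (-0.67 ± 0.035, adjusted p = 6e-21). Next were NPC1L1 (41.3, 38.3 and 39.7 against 59.3, 61.8 and 61.1, -0.61 ± 0.052), MVD (-0.58 ± 0.073) and NPC1 (-0.56 ± 0.040). MSMO1, IDI1 and SC5D differed by -0.48 ± 0.044, -0.48 ± 0.050 and -0.46 ± 0.057. The 4 that were higher with Pinelliae Tuber were LBR (0.48 ± 0.043), SOAT1 (0.39 ± 0.041), SCARB1 (0.26 ± 0.048) and SOAT2 (0.25 ± 0.075, adjusted p = 0.0035, and 0.066 without Scutellariae Radix replicate 2), all members that Scutellariae Radix lowered. SQLE, at 269, 271 and 262 against 279, 280 and 269, overlapped and did not pass the test (-0.04 ± 0.035, adjusted p = 0.29). At 100 µg/mL 12 members were lower with Pinelliae Tuber and none higher (all genes 6.15% and 7.35%). They included HMGCS1 (390 to 392 against 466 to 479, -0.27 ± 0.038), IDI1 (-0.26 ± 0.049) and DHCR7 (189 to 207 against 233 to 234, -0.25 ± 0.035), and TM7SF2 (-0.16 ± 0.050, adjusted p = 0.022), which was lost without Pinelliae Tuber replicate 1 or 2 or Scutellariae Radix replicate 2 (0.072 to 0.11). Differences between extracts with other code numbers were not tested.

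**Figure D4:**
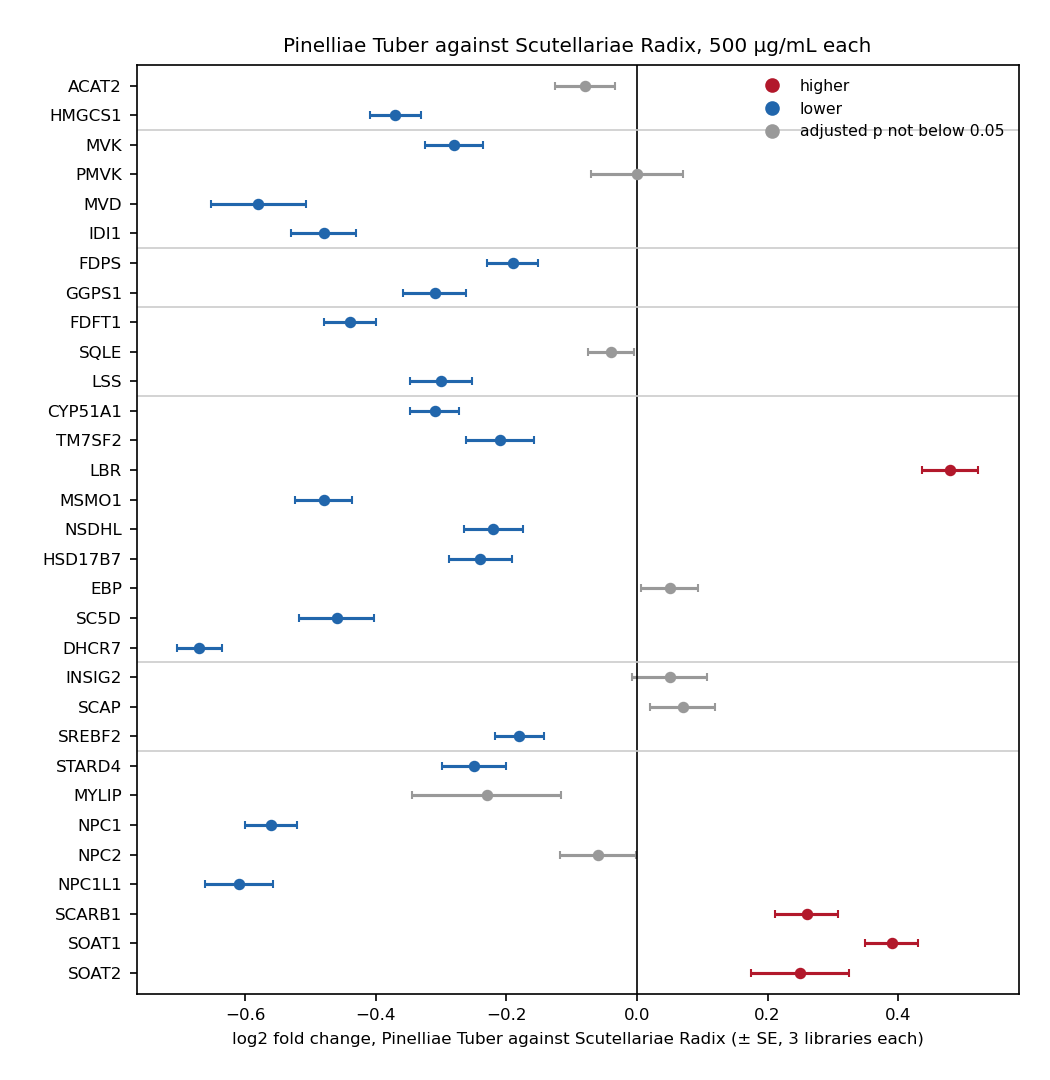
Log2 fold change of each tested member (rows, by step) between Pinelliae Tuber and Scutellariae Radix at 500 µg/mL, 3 libraries each. Bars are the SE from the fit on all 58 libraries. DHCR7 (-0.67) and NPC1L1 (-0.61) lie farthest to the left, and LBR (0.48) and SOAT1 (0.39) farthest to the right.

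Coptidis Rhizoma at 56 µg/mL was 1 library, so its values carry no test and no replicate check. Here a member was counted when it was at least 1.5-fold away from the vehicle mean and outside the range of the vehicle libraries: 21 of 31 members were lower and none higher, where 10.7% of all genes were lower and 10.4% higher. ACAT2 stood at 86.2 CPM against 275 to 277 in the vehicle (-1.68 on the log2 scale), MVD at 60.9 against 190 to 191 (-1.65) and MVK at 25.3 against 77.5 to 79.5 (-1.63). HMGCS1 was at 160 (-1.57), SQLE at 148 (-1.45), TM7SF2 at 28.2 (-1.50) and DHCR7 at 104 (-1.18). Each of these 7 was below every library of every other group. SREBF2 was at 126 (-0.68) and LBR at 118 (-0.61), while NPC1 was at 167 (0.54) and INSIG2 at 94.4 (0.31). SCAP, at 102, was 1.09-fold from the vehicle mean. By the same limit 6 of the 11 tested genes of fatty acid synthesis were lower, with FADS2 the most (-2.04), and of the 7 hepatocyte markers 3 were lower, FGB at -1.25 on the log2 scale, and 1 was higher. The part of the marker shift in the members' values was not tested. In the 11.2 µg/mL library no member passed the 1.5-fold limit (all genes 2.79% lower and 3.13% higher), with HMGCS1 at 392 (-0.28), SQLE at 329 (-0.29) and NPC1 at 141 (0.30), each outside the vehicle range. PMVK came nearest to the limit, at 9.00 against 12.9 to 14.0 CPM (-0.57).

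Zizyphi Fructus had no member past 1.5-fold in any of its 3 single libraries. The share of all genes past it was 1.13% lower and 1.25% higher at 500 µg/mL, 1.3% and 1.26% at 100 and 1.64% and 1.74% at 20 µg/mL. HMGCS1 was at 484 CPM and SQLE at 394 at 500 µg/mL, and the members lay between -0.11 and 0.12 of the vehicle on the log2 scale.

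Neighbouring genes of the pathway were read from lists of their own, beside the shares of all genes that rose and fell at the high dose (Sayeok-tang 20.3% and 19.9%, fresh ginger 24.3% and 23.6%, dried ginger 23.3% and 22.8%, Pinelliae Tuber 9.14% and 6.57%, Scutellariae Radix 28.7% and 28.1%, Bojungikgi-tang 2.24% and 2.31%). Of 11 tested genes of fatty acid synthesis that respond to SREBP, 11 fell with Sayeok-tang, 10 with each ginger, 9 with Pinelliae Tuber, 9 with Scutellariae Radix and 5 with Bojungikgi-tang, all at the high dose, and 1 rose with fresh ginger and 2 with Scutellariae Radix. The acetyl-CoA synthetase ACSS2 fell by 1.07 ± 0.038 with Sayeok-tang and by 0.94 ± 0.037 with Pinelliae Tuber. GPAM, the first acyltransferase of glycerolipid synthesis, fell by 1.18 ± 0.039 with fresh ginger and by 0.87 ± 0.038 with Scutellariae Radix. The desaturase FADS2 led with dried ginger, at -0.86 ± 0.043.

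Of 5 tested genes among other SREBP-responsive genes, 3 fell with Sayeok-tang and with fresh ginger, 5 with dried ginger, 4 with Pinelliae Tuber, 4 with Scutellariae Radix (1 rose) and 1 with Bojungikgi-tang. TMEM97, which binds NPC1, fell with each of these extracts, from -0.18 ± 0.038 with Bojungikgi-tang to -0.86 ± 0.039 with dried ginger. MMAB, an enzyme of cobalamin metabolism, shares a promoter region with MVK on the other strand and fell by 0.52 ± 0.051 with Sayeok-tang and 0.51 ± 0.051 with Pinelliae Tuber.

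Several counts in the next 3 lists lay near those shares of all genes. Of the 9 genes of SREBP processing and degradation, 2 rose and 1 fell with Sayeok-tang, 2 and 3 with fresh ginger, 4 and 1 with dried ginger, 1 and 1 with Pinelliae Tuber, 4 and 2 with Scutellariae Radix. With Bojungikgi-tang edgeR called 0 of them, 3 had an unadjusted p under 0.05 and DESeq2 called 1. SREBF1, the relative of SREBF2 that drives fatty acid synthesis, fell by 0.79 ± 0.068 with Scutellariae Radix and 0.26 ± 0.066 with Pinelliae Tuber. Of the 12 genes of the isoprenoid branch, 7 rose and 2 fell with Sayeok-tang, 4 and 3 with fresh ginger, 5 and 4 with dried ginger, 3 and 0 with Pinelliae Tuber and 3 and 4 with Scutellariae Radix. With Bojungikgi-tang edgeR called 0, 2 had an unadjusted p under 0.05 and DESeq2 called 1. FNTB, the farnesyltransferase beta subunit, fell by 0.79 ± 0.046 with Scutellariae Radix and 0.51 ± 0.051 with dried ginger. Among the 7 tested LXR targets and efflux genes, 2 fell with Sayeok-tang, 3 fell and 2 rose with fresh ginger, 1 and 2 with dried ginger, 2 and 0 with Pinelliae Tuber and 3 and 2 with Scutellariae Radix. With Bojungikgi-tang it was 0 by edgeR, by DESeq2 and at an unadjusted p under 0.05. ABCG8, a sterol exporter into bile, fell by 0.94 ± 0.076 with Scutellariae Radix, 0.70 ± 0.074 with fresh ginger and 0.41 ± 0.072 with Sayeok-tang.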

How the data were processed

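RNA of HepG2 cells was read in 58 libraries. Per the submitters' processing notes, reads passed FastQC 0.11.9, Trim Galore 0.6.5, STAR 2.7.3a and RSEM 1.3.3, with GRCh38 (hg38) as genome build. The values the authors deposited were expected counts per gene from RSEM, with no scaling between libraries found in them; 75.26% of the nonzero values were whole, and all were rounded here. The table held 209 further columns that the labels did not map to a sample, which were not used. Current symbols were found for 56558 of 60675 identifiers, 1145 identifiers were left without a symbol that another one holds, and 26619 had no reads.

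A gene was tested where 3 or more libraries reached 1 CPM (13945 genes). Counts were scaled by TMM (factors 0.878 to 1.04) and fitted by edgeR 4.0.16 (R 4.3.3) with 1 mean for each of the 24 groups; two-sided quasi-likelihood p-values were adjusted by Benjamini-Hochberg over all tested genes. The dispersion common to all genes (0.00181) corresponds to a 4.25% coefficient of variation, and the SE is the fold change over the root of F. The code was tested on simulated data. Alternatives were RLE scaling, no filter, DESeq2 1.42.0, only the compared groups, a replicate block, each replicate left out, and 3 low-dose libraries left out together. These were replicate 3 of Scutellariae Radix, replicate 3 of dried ginger and the Zizyphi Fructus library. The replicate numbers paired the samples in 0 of 30 comparisons, by a correlation over 0.1 of every pair's deviations and at least 3 shared numbers. Comparisons with 2 shared numbers could not meet this rule. In 1 of them, high- against low-dose Bojungikgi-tang, the correlations were 0.124. No replicate was a copy of another (lowest chi-square per gene 2.18).

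All members are described by step. Library values are given for the 3 called members with the largest change in each high-dose comparison and for a panel of 13, and in other comparisons for the 3 largest and the called panel members; further members were added after their values were seen. The members, lists and alternatives were chosen with earlier results of these data known. Gene models are from GENCODE 29 and promoters from RefSeq. Figures were drawn with matplotlib 3.10.9 in Python 3.11.15.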

Additional observations from a re-analysis of the deposited data

Results flagged for a closer look

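NPC1L1 moved in opposite directions with a pair of extracts. It was lower with high-dose Pinelliae Tuber (-0.35 ± 0.053) and higher with high-dose Scutellariae Radix (0.26 ± 0.051), and the direct difference of Pinelliae Tuber from Scutellariae Radix was -0.61 ± 0.052 on the log2 scale (edgeR, adjusted p = 7.9e-14). All 3 Pinelliae Tuber libraries (38.3 to 41.3 CPM) lay below the vehicle (49.5 to 52.1), and all 3 Scutellariae Radix libraries (59.3 to 61.8) above it.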

How the results depend on the processing

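Each of the 368 called member values was recomputed under every alternative that could be fitted, 4310 values in all. Of these, 4104 stayed past the threshold, 206 kept their direction but missed it, and 0 changed direction. Counts of called members moved by over 1.5 times as follows, and the cause was not tested. Without a filter on low counts they were 2 for Sayeok-tang medium (1 as reported), 11 for Pinelliae Tuber medium (7), 1 for Scutellariae Radix medium (2), 1 for dried ginger low (0) and 2 for Scutellariae Radix low (4). DESeq2 gave 2 for Sayeok-tang medium and 11 for Pinelliae Tuber medium. With only the groups compared, which leaves fewer samples, the counts were 2 for Sayeok-tang medium, 1 for dried ginger medium (0), 13 for Pinelliae Tuber medium, 5 for Scutellariae Radix medium, 2 for Scutellariae Radix low, 2 for Bojungikgi-tang high against low (7) and 3 for fresh against dried ginger high (9). Without the 3 libraries left out together they were 3 for Sayeok-tang medium, 14 for Pinelliae Tuber medium, 11 for Bojungikgi-tang high against low and 1 for Sayeok-tang against Bojungikgi-tang medium (0). Leaving out 1 replicate at a time gave 5 to 12 for Bojungikgi-tang high (15), 4 to 7 for Pinelliae Tuber medium, 1 to 2 for Scutellariae Radix medium, 2 to 7 for Scutellariae Radix low and 2 to 6 for Bojungikgi-tang high against low. Where a group had 2 libraries, the lone sample left is assumed to vary like the other groups. The replicate block moved no count by over 1.5 times: with it 14 members were called for Bojungikgi-tang high and 8 for Pinelliae Tuber medium, but MVD and SC5D of Bojungikgi-tang (adjusted p of 0.061 and 0.055) and PMVK of fresh ginger medium (0.051) missed the threshold. The single-library counts, 21 for Coptidis Rhizoma medium and 0 for the other 4, were the same with RLE scaling.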
